A study of Drosophila melanogaster with 10 samples.

Results

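DNA transposon insertions in the reference genome of Drosophila melanogaster were followed in bulk RNA-seq of the larval brain. The members were the transposable element insertion rows of the deposited count table whose family name was S, hopper, H, 1360, pogo, Bari1, INE-1, Tc1, Tc1-2, mariner2, FB, NOF, transib2 or HB. They numbered 3169 of 5736 insertion rows, in 14 of 128 families, in a table of 24278 rows of which 17895 were genes. Whole brains of 3rd instar larvae were compared between 4 libraries with the genotype label vostok, the name the series gives to CG11504, and 4 control libraries whose names begin with yw. The labels describe neither the allele in the vostok larvae nor the strain in which it is kept, and give no sex and no age beyond the larval stage. Per the series, the mutant served to ask what the gene does for the folding of chromatin and for transcription. The 2 Micro-C libraries of the series, both from vostok larvae, were not analysed here.

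DNA transposons move as DNA. A transposase, encoded by the intact copies of a family, binds inverted repeats at the element's ends, cuts the element out and joins it into another site, and many shorter copies that encode no transposase can be moved by it. S, Tc1, Tc1-2, mariner2, Bari1 and pogo are relatives of the Tc1 and mariner elements. H is hobo, hopper and transib2 belong to the Transib group, and 1360 (also called hoppel) is related to the P element. INE-1 copies, which resemble Helitrons and so spread by another route, are short, old and numerous and encode no protein, FB (Foldback) elements carry long inverted repeats, and NOF is a sequence found inside some FB elements. In the fly, small RNAs bound to Piwi or Argonaute proteins and heterochromatin hold transposons silent. Because many insertions lie inside or beside genes, reads assigned to one can also come from the RNA of a gene that contains it.

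The libraries held 57224625 to 81373505 estimated counts over gene rows. Levels are given as counts per 1000000 of these gene counts (CPM), so that 3 counts correspond to 0.0369 to 0.0524 CPM. This limit covers counting error only. Levels of different families were not compared per length, since insertion lengths were not used here. Markers of the labelled tissue were present in all libraries: the summed CPM of 5 neuronal genes was 2234 to 2555 in vostok and 1141 to 2415 in control libraries, that of 4 glial genes 462 to 490 in vostok and 460 to 533 in control libraries, and that of 4 neuroblast genes 464 to 548 in vostok and 385 to 465 in control libraries. The hemocyte sum, over 6 genes, was 151 to 716 CPM in vostok and 236 to 4824 CPM in control libraries. Sums over markers of other tissues were 58.8 to 278 CPM in vostok and 28.3 to 199 CPM in control libraries for fat body, 22.4 to 86.1 CPM in vostok and 55.9 to 173 CPM in control libraries for muscle, and 1235 to 1468 CPM in vostok and 1057 to 1368 CPM in control libraries for imaginal discs. They were 325 to 718 CPM in vostok and 182 to 471 CPM in control libraries for ring gland, and 7.74 to 8.50 CPM in vostok and 1.14 to 2.08 CPM in control libraries for gut. CG11504 itself averaged 73.9 ± 2.20 CPM in vostok and 59.8 ± 4.90 CPM in control libraries (SD, n = 4 each; edgeR quasi-likelihood test, log2 difference 0.31, adjusted p = 0.0148), so the counts show no lower level of its RNA in the libraries labelled vostok. The pigment gene y averaged 124 ± 22.6 CPM in vostok and 0.841 ± 0.128 CPM in control libraries (log2 difference 7.19), and w averaged 2.11 ± 1.38 CPM in vostok and 3.42 ± 0.599 CPM in control libraries (adjusted p = 0.263). The vostok mutation and other differences between the fly strains cannot be told apart in this design. Which of the annotated insertions the larvae of each group carry in their genomes was not tested. Nothing in the labels says whether the 4 repeats of each genotype were dissected from different batches of larvae, so the p-values refer to variation among these 8 libraries, part of which may be technical. In RNA from whole brains, fewer cells of a type and less RNA per cell cannot be told apart.

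Most annotated copies had no counts. Of the 3169 insertions, 1935 were at 0 in all 8 libraries, 1234 had a count in at least 1 library and 274 had a count in every library. Summed over all members, the level was 296, 307, 348 and 311 CPM in vostok libraries 1 to 4, against 256, 352, 282 and 328 CPM in control libraries 1 to 4. The groups overlapped, with means of 316 ± 22.3 CPM in vostok and 305 ± 43.9 CPM in control libraries (SD, n = 4 each), a log2 difference of 0.05 that was not tested. The members thus held 0.0256% to 0.0352% of the gene total and 5.41% to 7.69% of the counts of all annotated insertions. Control library 1 was the lowest control in 10 of the 14 families and control library 2 the highest control in 9 of them. Among vostok libraries, library 3 had the highest total, at 348 CPM. Its share of ribosomal RNA was 10.7%, against 2.85% to 6.41% in the other libraries of both groups. Scaling without ribosomal RNA genes was among the alternatives.

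**Figure D1:**
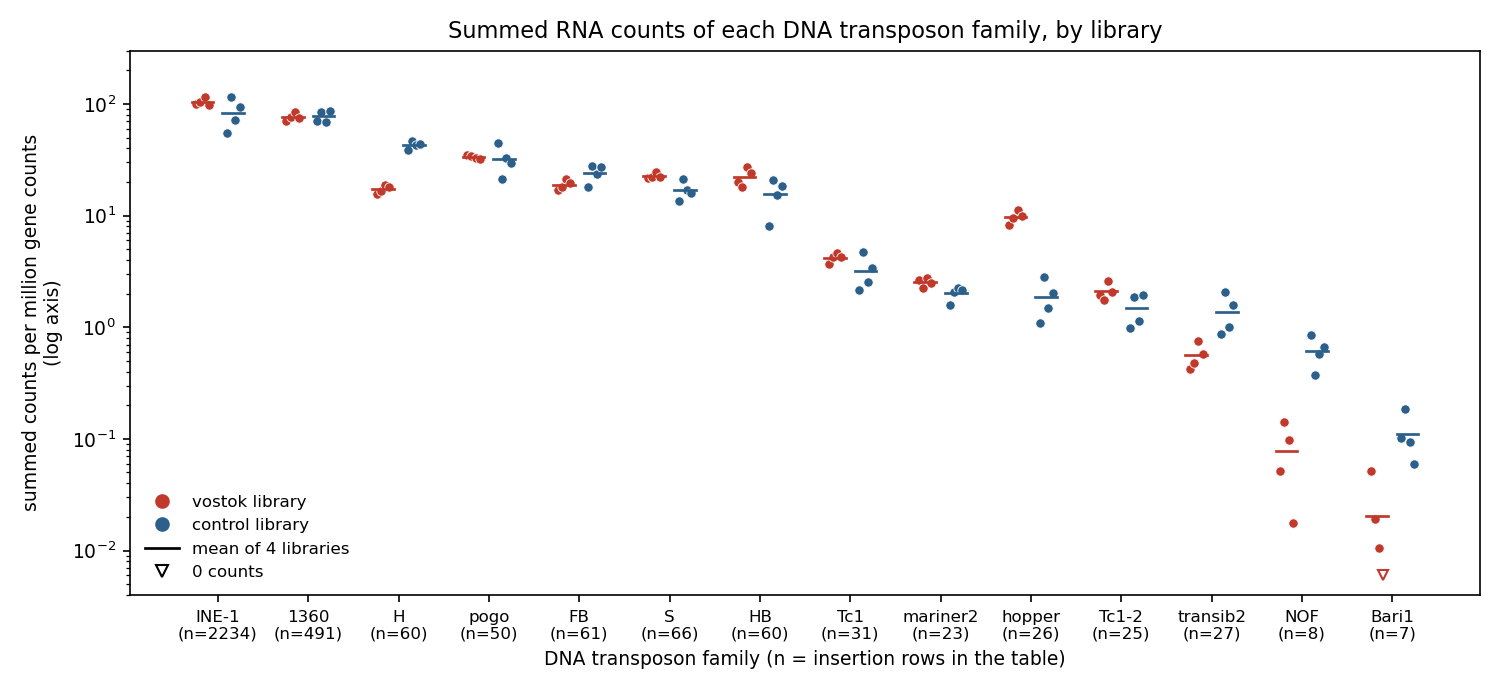
Summed counts of each DNA transposon family in CPM (log axis), with 1 point per library, vostok left of control, lines at the mean of 4 libraries and open triangles for libraries at 0. The vostok and control points are apart in S, hopper, H, NOF and transib2 and, at levels near 3 counts, Bari1; hopper has the widest gap upward and NOF the widest downward.

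Under this nearly equal total, single families went opposite ways. Family sums were tested together with all genes with edgeR's quasi-likelihood test, with Benjamini-Hochberg adjustment over all 10860 features and a threshold of 0.05. Of 13 families with enough counts, 5 passed (38.5%): hopper and S rose, and H, NOF and transib2 fell. In the same fit 23.8% of all features passed, 11.7% higher and 12.1% lower in vostok, and of 98 other transposon families 32.7% passed, 21.4% higher and 11.2% lower. The groups did not overlap in these 5 of the 13 tested families, against 30.2% of all features. The median log2 difference over the 13 families was 0.32, over the other families 0.40 and over all features 0.01.

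The hopper sum showed the largest rise. It was 8.25, 9.61, 11.3 and 10.01 CPM in vostok libraries 1 to 4, against 1.09, 2.83, 1.49 and 2.03 CPM in control libraries 1 to 4. Every vostok library lay above every control library, with a log2 difference of 2.39 ± 0.29 (SE; adjusted p = 8.4e-04). In the deposited estimates, which divide reads that match several copies, a single row, hopper{}368, carried this rise. Without it, the other 25 hopper insertions summed to 1.20 ± 0.499 CPM in vostok and 1.81 ± 0.785 CPM in control libraries (SD, n = 4 each), and the log2 difference turned to -0.60 (adjusted p = 0.272).

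The S sum was 21.8, 22.4, 24.4 and 22.4 CPM in vostok libraries 1 to 4, against 13.5, 21.5, 17.04 and 15.8 CPM in control libraries 1 to 4. The lowest vostok library lay just above control library 2, and the log2 difference was 0.42 ± 0.13 (adjusted p = 0.04997). This call was lost with TMM factors (adjusted p = 0.0668), with RLE factors (0.064) and in 7 of 8 fits without 1 library, with an adjusted p of up to 0.117 without vostok library 3. Without control library 2 the adjusted p was 0.00324 and the log2 difference 0.56. In the deposited estimates, which divide reads that match several copies, opposite changes met inside the sum. Without S{}8, the copy with the most S counts, the other insertions summed to 21.3 ± 1.15 CPM in vostok and 7.54 ± 1.62 CPM in control libraries. Their log2 difference was 1.49 (edgeR, adjusted p = 4.03e-04). Whether reads were divided differently between S{}8 and the other S copies in the 2 groups was not tested.

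The H sum, the hobo family, was 15.6, 16.7, 18.8 and 18.2 CPM in vostok libraries 1 to 4, against 39.0, 46.6, 43.2 and 43.8 CPM in control libraries 1 to 4. The highest vostok library lay far below the lowest control library, and the means were 17.3 ± 1.47 CPM in vostok and 43.2 ± 3.14 CPM in control libraries (SD, n = 4 each). The log2 difference was -1.32 ± 0.08 (adjusted p = 3.24e-05). Without H{}84, its most abundant copy, the other H insertions still summed to 12.3 ± 1.18 CPM in vostok and 22.2 ± 2.62 CPM in control libraries, a log2 difference of -0.84 (adjusted p = 0.00113). The 3 other tested H copies did not pass and summed to 8.23 ± 1.06 CPM in vostok and 7.71 ± 0.917 CPM in control libraries. The other 56 H rows, 28 of them at 0 in all libraries, did not pass the default filter and were not tested singly. That filter asks for enough counts in enough libraries. These rows summed to 4.02, 3.99, 4.62 and 3.80 CPM in vostok libraries 1 to 4, against 11.5, 16.04, 14.7 and 15.5 CPM in control libraries 1 to 4. By the deposited estimates, which divide reads that match several copies, the fall outside H{}84 was thus in these rows.

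The NOF sum was low throughout, at 0.0512, 0.142, 0.0985 and 0.0175 CPM in vostok libraries 1 to 4, against 0.849, 0.377, 0.580 and 0.660 CPM in control libraries 1 to 4. Vostok libraries 1 and 4 were at 3 counts or fewer, and the log2 difference was -2.92 ± 0.50 (adjusted p = 0.00518). With a filter that asks for 50 counts in at least 4 libraries the family was not tested. Most NOF counts fell on NOF{}724, which had 3, 5, 7 and 1 estimated counts in vostok libraries 1 to 4, against 30, 11, 21 and 29 in control libraries 1 to 4. NOF sequences occur within FB elements, and reads of FB copies that contain NOF can be divided between rows of both families.

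The transib2 sum was 0.426, 0.483, 0.756 and 0.577 CPM in vostok libraries 1 to 4, against 0.871, 2.07, 1.00 and 1.59 CPM in control libraries 1 to 4. The groups were apart by little, between vostok library 3 and control library 1, with a log2 difference of -1.30 ± 0.34 (adjusted p = 0.0279). The call was lost without vostok library 1 (adjusted p = 0.0709), vostok library 2 (0.0829), vostok library 4 (0.0664) or control library 4 (0.0595). In the deposited estimates, the call rested on transib2{}157, without which the log2 difference was -0.26 (edgeR, adjusted p = 0.627).

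**Figure D2:**
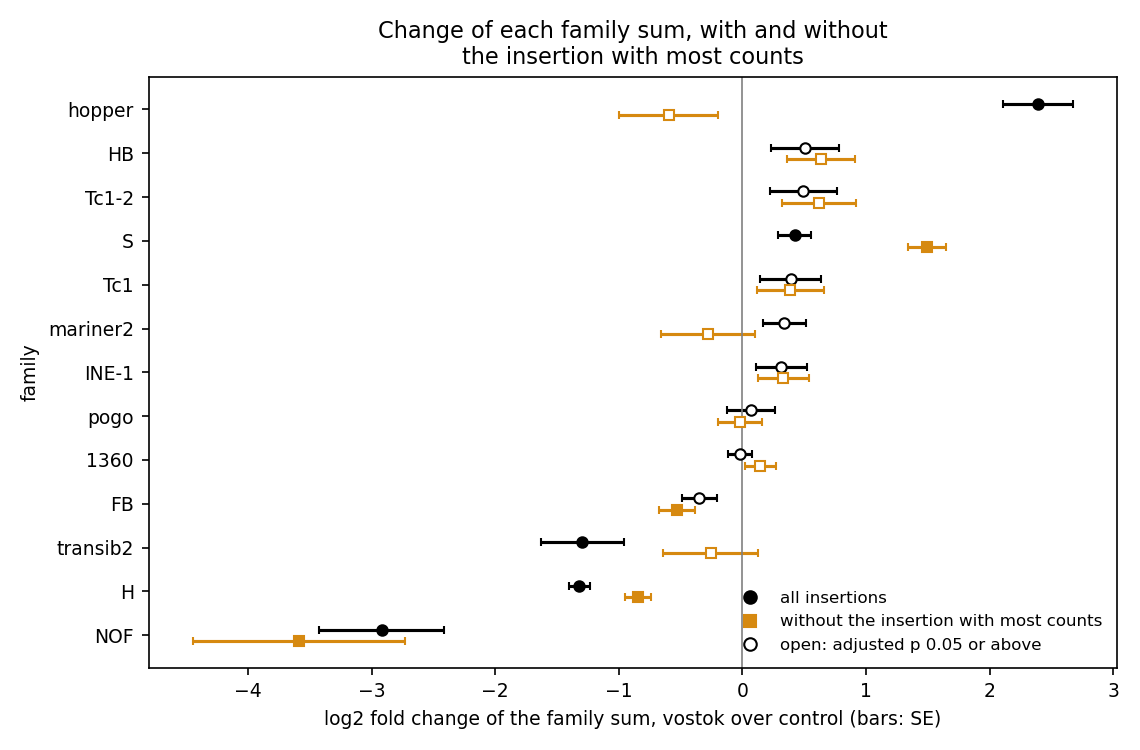
Log2 difference of each family sum, vostok over control, with all insertions (black) and without the insertion with the most counts (orange); bars are standard errors, filled symbols have an adjusted p below 0.05. The hopper difference turns from 2.39 to -0.60 and that of S grows from 0.42 to 1.49 when 1 insertion is left out, while H stays below 0 at -0.84.

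Of the families that did not pass, the most abundant, INE-1, was at 99.3, 104, 116 and 99.0 CPM in vostok libraries 1 to 4, against 54.8, 115, 71.8 and 94.3 CPM in control libraries 1 to 4. Control library 2 lay within the vostok values and the other control libraries below them, and the log2 difference was 0.32 ± 0.21 (adjusted p = 0.263). The summed neuronal markers ranked the control libraries in the same order, at 1141, 2415, 1364 and 2057 CPM in control libraries 1 to 4, and their part in the INE-1 sums was not tested. Without control library 2 the INE-1 difference was 0.50 (adjusted p = 0.0446). Tc1, at 4.21 ± 0.398 CPM in vostok and 3.21 ± 1.14 CPM in control libraries (log2 difference 0.39 ± 0.25, adjusted p = 0.251), also passed without that library (0.64, adjusted p = 0.0323).

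The 1360 sums were nearly equal, at 77.0 ± 6.20 CPM in vostok and 78.0 ± 9.70 CPM in control libraries (SD, n = 4 each; log2 difference -0.02 ± 0.10, adjusted p = 0.896). The pogo sums averaged 33.6 ± 1.17 CPM in vostok and 32.0 ± 9.67 CPM in control libraries, where single libraries ran from 21.1 to 44.5 CPM (log2 difference 0.07 ± 0.19, adjusted p = 0.796). HB averaged 22.3 ± 4.11 CPM in vostok and 15.7 ± 5.51 CPM in control libraries (log2 difference 0.51 ± 0.27, adjusted p = 0.186). Tc1-2, at 2.09 ± 0.356 CPM in vostok and 1.49 ± 0.491 CPM in control libraries, had a log2 difference of 0.49 ± 0.27 (adjusted p = 0.192), and mariner2, at 2.56 ± 0.226 CPM in vostok and 2.02 ± 0.293 CPM in control libraries, one of 0.34 ± 0.17 (adjusted p = 0.169). FB was fitted lower, with 19.0 ± 1.84 CPM in vostok and 24.1 ± 4.62 CPM in control libraries (log2 difference -0.35 ± 0.14, adjusted p = 0.103). Its difference passed without control library 1 (-0.47, adjusted p = 0.0204) and without its most abundant copy, FB{}1604 (-0.53, adjusted p = 0.031). Bari1 had too few counts to be tested, with 0.0512, 0.0191, 0.0106 and 0 CPM in vostok libraries 1 to 4, against 0.102, 0.184, 0.0943 and 0.0599 CPM in control libraries 1 to 4. Every vostok library was there at 3 counts or fewer, which gives no usable ratio.

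Some single copies differed far more than the sum of their family. Each insertion row was tested as its own feature beside all genes and all other insertions, 11736 features in all. Of the 3169 members, 216 had enough counts in enough libraries to be tested, and they held 89.5% of the members' counts. The 2953 others together summed to 29.3 ± 6.73 CPM in vostok and 35.3 ± 9.57 CPM in control libraries (SD, n = 4 each). Of the 216, 40 passed (18.5%), 21 higher and 19 lower in vostok. In the same fit 23.9% of all features passed, 12.1% higher and 11.9% lower. Genes passed in 23.3% of cases, 11.4% higher and 11.9% lower, and the 771 tested insertions of other families in 34.2%, 21.8% higher and 12.5% lower. The members' share was thus below that of all features. The groups did not overlap in 56 of the 216, against 30.6% of all features, and all 40 called insertions were among the 56. The median log2 difference was 0.28 over the members, also when 2 insertions at 0 in every control library were set at their lower bound, against 0.01 over all features and 0.40 over insertions of other families. Among the 176 that did not pass, 127 were fitted higher and 49 lower. This split was not computed for other features, and copies measured in the same 8 libraries are not independent, so it is no result about the members.

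Of the 40 called copies 25 (62.5%) were fitted at least 4-fold apart, 13 of them higher and 12 lower in vostok, against 27.1% of all called features, 22.6% of called genes and 64.4% of called insertions of other families. Rows with few counts pass only when the difference is large, and the part of count level in the contrast with called genes was not tested. In 10 of the 40, one of the groups held 10 counts or fewer over its 4 libraries, so that they entered the test through the other group. By family, 8 of 17 S copies passed (7 higher, 1 lower), 16 of 59 copies of 1360 (7 higher, 9 lower), 9 of 76 INE-1 copies (5 higher, 4 lower), 3 of 20 FB copies (all lower), and 1 each of 8 Tc1 (higher), 4 H (lower), 2 hopper (higher) and 2 transib2 copies (lower). Of the 12 HB, 6 pogo, 5 Tc1-2 and 5 mariner2 copies 0 passed edgeR's test. At an unadjusted p below 0.05 there were 4 in HB, all higher, and 0 in the other 3 families. DESeq2 called 2 HB copies higher, limma voom called 0, and both called 0 in the other 3 families. No Bari1 or NOF copy was tested alone. The 10 largest increases and 10 largest decreases among the called copies with at least 10 counts on average in the higher group are described by family. Their counts are rounded estimated counts per library, not scaled for depth.

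**Figure D3:**
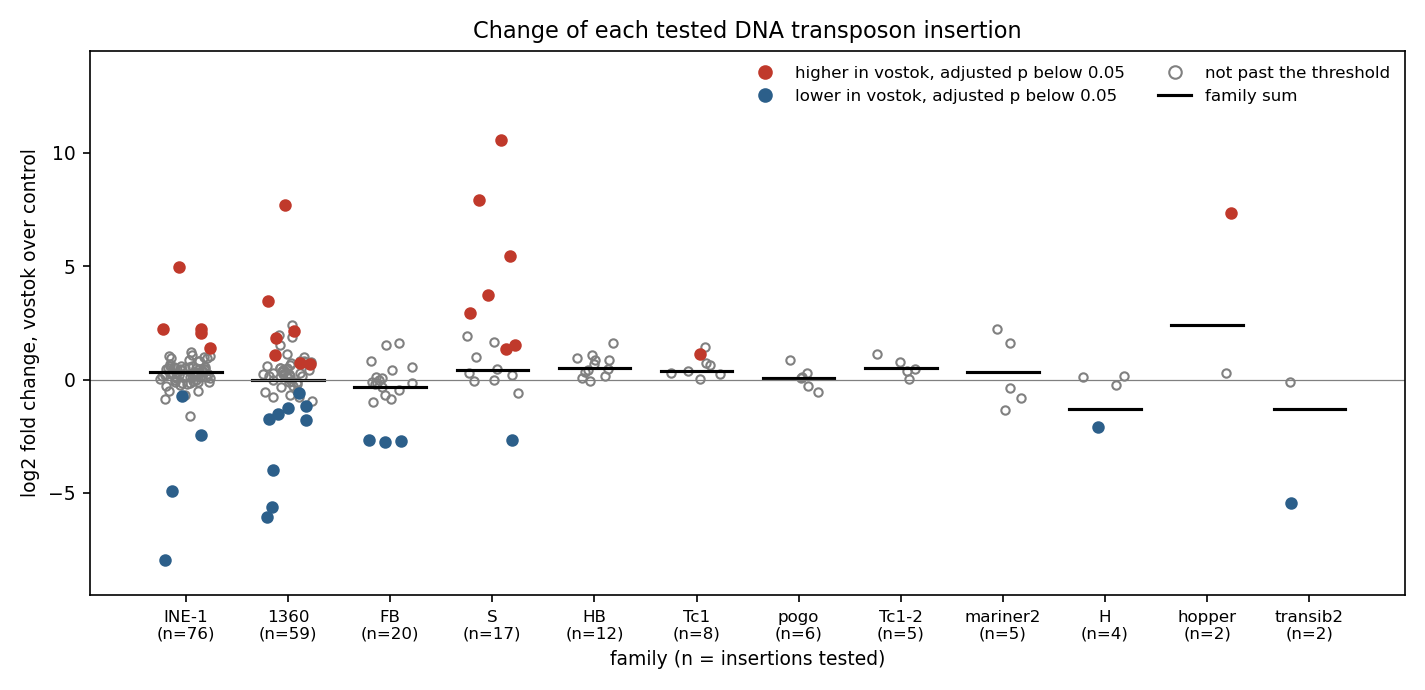
Log2 difference, vostok over control, of each of the 216 tested insertions, by family; red and blue points passed the test higher and lower in vostok, open points did not pass, and black lines mark the family sum. S and 1360 hold red and blue points far from 0 on both sides, while HB, pogo, Tc1-2 and mariner2 hold open points alone.

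S copies made up 5 of the 10 largest increases. S{}4786 (FBti0062847) had 187, 196, 192 and 157 counts in vostok libraries 1 to 4, against 0 in all 4 control libraries. With control set at 3 counts per library it was at least 64.5-fold higher in vostok (adjusted p = 9.48e-05). S{}195 (FBti0019667) followed the same pattern at a lower level, with 19, 25, 32 and 39 counts in vostok libraries 1 to 4, against 0 in all 4 control libraries, at least 10.3-fold higher (adjusted p = 0.00183). Both copies therefore had estimated counts in every vostok library and in no control library. None of their nonzero values was whole, so the copy from which the reads came is uncertain. The fold bounds cover counting error only.

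S{}1026 (FBti0020137) had 283, 469, 466 and 361 counts in vostok libraries 1 to 4, against 49, 78, 41 and 50 in control libraries 1 to 4 (log2 difference 2.95 ± 0.20, adjusted p = 4.01e-05). It was the leading S copy in vostok libraries, with 26.1% of their S counts, against 4.53% in control libraries. S{}1207 (FBti0019294) had 110, 91, 82 and 64 counts in vostok libraries 1 to 4, against 1, 3, 2 and 2 in control libraries 1 to 4 (adjusted p = 3.85e-05), with a control mean under 3 counts per library and no ratio given. S{}1208 (FBti0019295) had 34, 66, 64 and 44 counts in vostok libraries 1 to 4, against 3, 7, 2 and 4 in control libraries 1 to 4 (log2 difference 3.74 ± 0.35, adjusted p = 2.54e-04). S{}8 (FBti0019527) went the other way, with 108, 96, 114 and 75 counts in vostok libraries 1 to 4, against 554, 997, 559 and 576 in control libraries 1 to 4 (log2 difference -2.66 ± 0.20, adjusted p = 9.12e-05). It held 6.48% of S counts in vostok libraries and 55.7% in control libraries. By these estimates, which divide reads that match several copies, the leading S copy differed between the groups.

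In the hopper family, hopper{}368 (FBti0019760) had 437, 644, 671 and 529 counts in vostok libraries 1 to 4, against 6, 1, 6 and 1 in control libraries 1 to 4. Its mean of 8.58 ± 0.932 CPM in vostok was 171 times the mean of 0.0502 ± 0.0392 CPM in control libraries (SD, n = 4 each; log2 difference 7.35 ± 0.55, adjusted p = 8.76e-05). That control mean lies just above 3 counts per library (0.0431 CPM), with control libraries 2 and 4 at 1 count, so the ratio is imprecise. hopper{}368 held 87.4% of hopper counts in vostok and 2.52% in control libraries. The other tested copy, hopper{}6535, had 11, 38, 61 and 14 counts in vostok libraries 1 to 4, against 6, 37, 15 and 46 in control libraries 1 to 4 (adjusted p = 0.77), with the groups overlapping.

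Under the near-equal 1360 sums, single copies changed strongly in both directions. 1360{}1588 (FBti0059649) had 250, 369, 292 and 215 counts in vostok libraries 1 to 4, against 0, 0, 5 and 0 in control libraries 1 to 4 (adjusted p = 9.88e-04). 1360{}5004 (FBti0063065) had 478, 745, 632 and 469 counts in vostok libraries 1 to 4, against 54, 67, 49 and 54 in control libraries 1 to 4 (log2 difference 3.44 ± 0.13, adjusted p = 1.97e-06). The opposite held for 1360{}3665 (FBti0061726), with 11, 11, 15 and 9 counts in vostok libraries 1 to 4, against 903, 866, 657 and 850 in control libraries 1 to 4 (log2 difference -6.06 ± 0.19, adjusted p = 1.26e-06). This copy held 0.224% of 1360 counts in vostok and 14.9% in control libraries.

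At lower counts, 1360{}1463 (FBti0020393) had 0, 2, 0 and 2 counts in vostok libraries 1 to 4, against 22, 81, 58 and 72 in control libraries 1 to 4 (adjusted p = 0.00156). 1360{}5886 (FBti0063947) had 1, 0, 1 and 2 counts in vostok libraries 1 to 4, against 33, 19, 11 and 14 in control libraries 1 to 4 (adjusted p = 0.00411). In both, the vostok level was under 3 counts per library and no ratio is given. The most abundant 1360 copy, 1360{}1533 (FBti0020434), changed by less, with 13.3 ± 0.679 CPM in vostok and 20.4 ± 1.93 CPM in control libraries (log2 difference -0.61 ± 0.08, adjusted p = 0.00162).

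**Figure D4:**
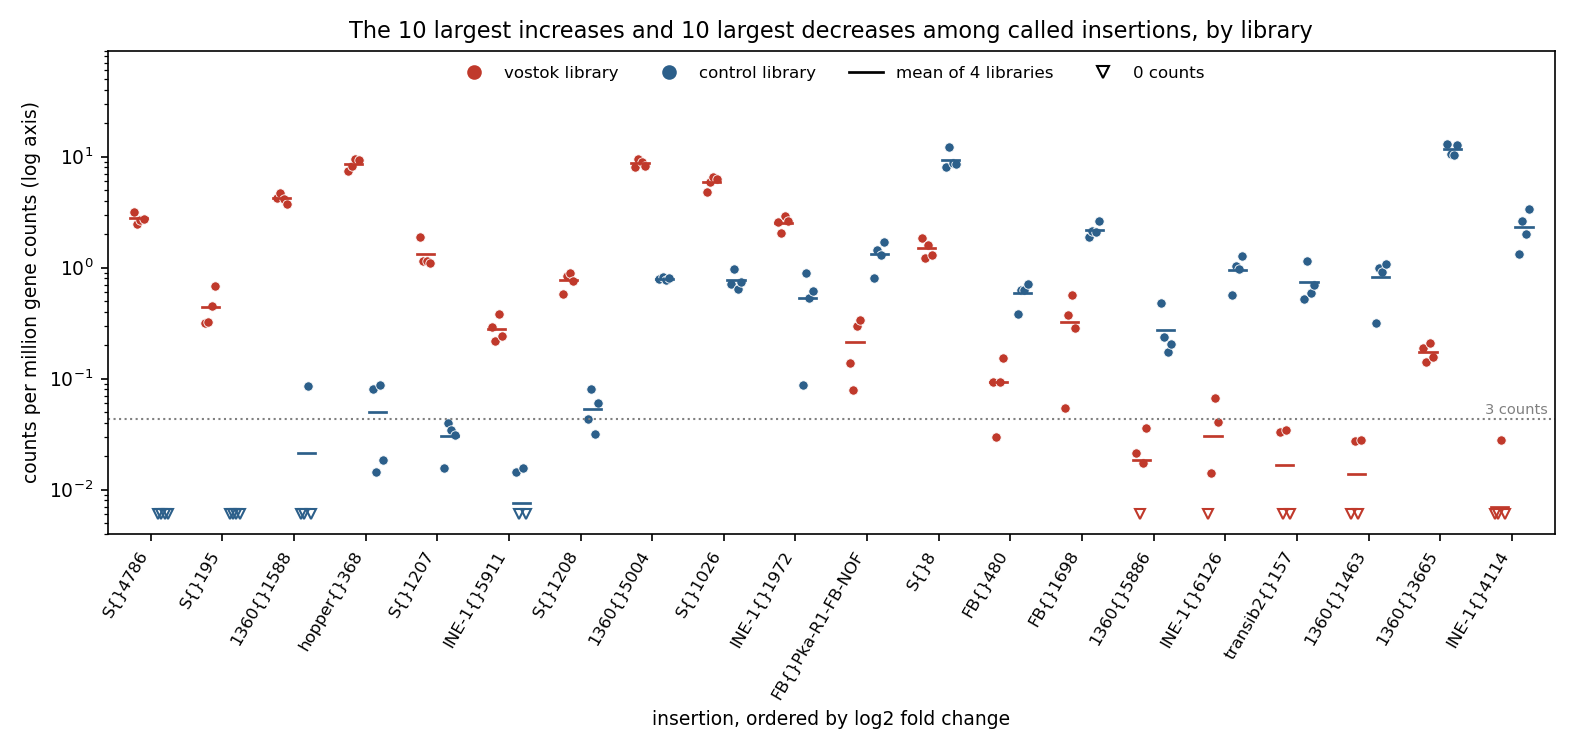
Level in CPM (log axis) of the 10 called insertions with the largest increases and the 10 with the largest decreases, ordered by log2 difference, with 1 point per library, vostok left of control, lines at group means and open triangles at 0; the dotted line is 3 counts at mean control depth. The control points of the copies at the left and the vostok points of those at the right lie near or under the dotted line. The groups are apart in every copy because the copies were chosen for it.

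Among the INE-1 copies, whose sums did not pass, INE-1{}4114 (FBti0062175) was close to 0 in vostok libraries, with 0, 0, 2 and 0 counts in vostok libraries 1 to 4, against 91, 213, 129 and 226 in control libraries 1 to 4 (adjusted p = 3.37e-04). INE-1{}6126 (FBti0064187) had 0, 1, 5 and 2 counts in vostok libraries 1 to 4, against 39, 84, 62 and 85 in control libraries 1 to 4 (adjusted p = 0.00135). Both copies had at most 5 counts in any vostok library. INE-1{}5911 (FBti0063972) showed the reverse, with 17, 17, 27 and 14 counts in vostok libraries 1 to 4, against 1, 0, 1 and 0 in control libraries 1 to 4 (adjusted p = 9.71e-04). The lower group of these 3 copies averaged under 3 counts per library, so no ratio is given. INE-1{}1972 (FBti0060033) had 150, 160, 206 and 150 counts in vostok libraries 1 to 4, against 6, 73, 34 and 41 in control libraries 1 to 4 (log2 difference 2.24 ± 0.56, adjusted p = 0.0247). It was the only one of the 20 copies to lose its call under an alternative in which it was tested: without each of 6 single libraries in turn and with a replicate block, with an adjusted p of up to 0.0661.

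The 3 called FB copies all fell. FB{}1698 (FBti0059759) had 3, 29, 41 and 16 counts in vostok libraries 1 to 4, against 131, 173, 132 and 174 in control libraries 1 to 4 (log2 difference -2.75 ± 0.56, adjusted p = 0.0106). FB{}480 (FBti0019826) had 5, 2, 7 and 9 counts in vostok libraries 1 to 4, against 27, 51, 40 and 48 in control libraries 1 to 4 (log2 difference -2.70 ± 0.47, adjusted p = 0.00518). FB{}Pka-R1-FB-NOF (FBti0059736) had 8, 6, 21 and 19 counts in vostok libraries 1 to 4, against 55, 118, 82 and 115 in control libraries 1 to 4 (log2 difference -2.64 ± 0.48, adjusted p = 0.00659). In none of the 3 did a vostok library reach a control library, once counts were scaled to depth, which the rule for naming copies requires.

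In the H family the called copy was H{}84 (FBti0019603), with 272, 377, 370 and 298 counts in vostok libraries 1 to 4, against 1391, 1762, 1378 and 1372 in control libraries 1 to 4 (log2 difference -2.08 ± 0.07, adjusted p = 1.53e-06). It held 28.7% of H counts in vostok and 48.6% in control libraries. The next copy in abundance, H{}1735, had 229, 338, 337 and 285 counts in vostok libraries 1 to 4, against 266, 385, 226 and 274 in control libraries 1 to 4 (log2 difference 0.14, adjusted p = 0.48). transib2{}157 (FBti0019081) had 2, 0, 2 and 0 counts in vostok libraries 1 to 4, against 36, 93, 38 and 46 in control libraries 1 to 4 (adjusted p = 0.00116), with the vostok level under 3 counts per library.

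Apart from 1360, the leading copies of the families with no called sum, INE-1, Tc1, Tc1-2, FB, HB, pogo and mariner2, did not pass either. INE-1{}5364 averaged 16.5 ± 1.24 CPM in vostok and 13.9 ± 4.82 CPM in control libraries (adjusted p = 0.419). FB{}1604 averaged 4.62 ± 0.325 CPM in vostok and 3.44 ± 1.07 CPM in control libraries (adjusted p = 0.189), and HB{}248 averaged 4.33 ± 0.796 CPM in vostok and 4.13 ± 1.57 CPM in control libraries (adjusted p = 0.879). pogo{}4759, which held 68.8% of pogo counts in vostok and 65.7% in control libraries, ran from 21.4 to 25.1 CPM in vostok and from 11.2 to 33.0 CPM in control libraries (adjusted p = 0.784). Tc1{}1544 (adjusted p = 0.26) and Tc1-2{}5456 (adjusted p = 0.931) overlapped between the groups as well. mariner2{}1130 was read in some libraries of each group and at 0 in the others, with 0, 103, 102 and 89 counts in vostok libraries 1 to 4, against 0, 0, 0 and 61 in control libraries 1 to 4 (adjusted p = 0.333). Beside the 20 copies with the largest changes, 1360{}1533 and H{}84, 18 more copies passed, with log2 differences of 0.68 to 2.23 in the 11 that rose and -2.44 to -0.73 in the 7 that fell.

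How a family's counts were divided over its copies was summarised as the percentage of that division shared by a pair of libraries. In S, pairs of vostok libraries shared a median of 87.8% and pairs of control libraries 91.0%, against 38.6% between a vostok and a control library. The lowest S pair within a group shared 82.8% and the highest pair between groups 42.3%, so the ranges were far apart. In 1360 the medians were 85.2% within vostok, 83.8% within control and 58.9% between the groups, in H 74.4%, 64.6% and 47.3%, in FB 82.4%, 87.0% and 71.1%, and in transib2 65.9%, 68.1% and 30.2%. In hopper the vostok libraries shared 91.4%, the control libraries 48.0%, and pairs across the groups 11.9%. INE-1 stood closer together, at 84.9% within each group and 79.2% between them. In pogo (87.2% within vostok, 78.0% within control and 85.0% between), HB (82.6%, 89.9% and 84.4%), Tc1 (84.3%, 81.1% and 80.1%) and Tc1-2 (75.5%, 73.4% and 73.4%) libraries of different groups were about as alike as libraries of 1 group. These values are descriptions with no test: 6 pairs within each group and 16 between groups reuse the same 8 libraries, and the deposited estimates divide reads that match several copies.

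**Figure D5:**
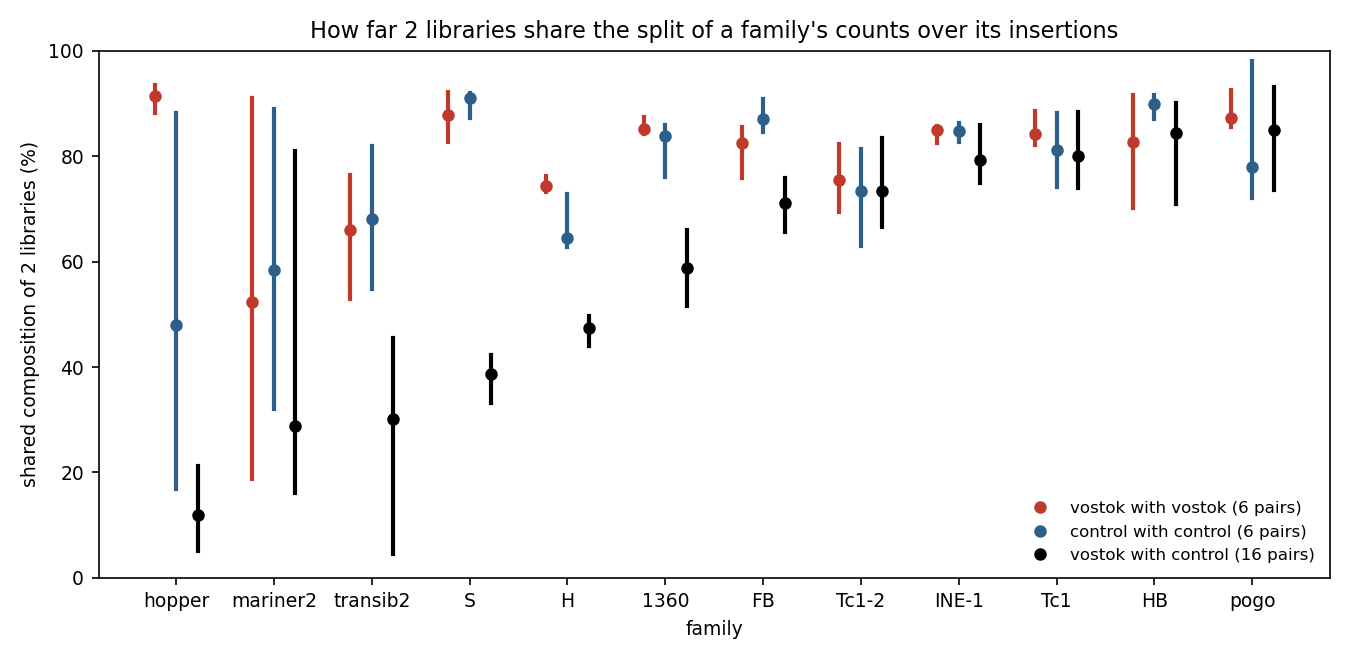
Percentage of a family's division of counts over its insertions that 2 libraries share, as the median (point) and range (line) over 6 pairs of vostok libraries, 6 pairs of control libraries and 16 pairs across the groups; Bari1 and NOF, with few counts, are left out. In S, H and 1360 the range across the groups lies wholly below both ranges within a group, while in pogo, HB, Tc1 and Tc1-2 the 3 ranges overlap.

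That division bears on how far a single copy's count can be read. Many of the deposited counts are not whole, which an estimate that divides reads between rows can give, be they other copies or overlapping genes. Values were whole, within 0.002, for all 5 nonzero values of INE-1{}4114, all 6 of INE-1{}5911, all 8 of INE-1{}1972 and 7 of 8 of 1360{}3665. For S{}4786, S{}195, S{}8, S{}1026, hopper{}368, H{}84, transib2{}157 and the 3 FB copies, 0 were whole. The same held for 1360{}1588, 1360{}5004, 1360{}1463, 1360{}5886, 1360{}1533 and INE-1{}6126. For all of these the copy from which the reads came is uncertain. S{}1207 had 1 whole value of 8 and S{}1208 had 3 of 8. Which rows shared reads was not tested. By family, the whole share of nonzero values ran from 6.82% in pogo to 97.1% in mariner2, with 30.4% in S, 29.9% in 1360 and 93.9% in INE-1. Family sums do not depend on that division as long as reads are divided within a family.

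Some rows carry the name of a gene: 30 of the members, of which 28 named a gene found in the table, 22 genes in all, and 13 were tested. FB{}Pka-R1-FB-NOF, which fell by 2.64 on the log2 scale, names Pka-R1, a regulatory subunit of protein kinase A, whose own level was 192 ± 4.14 CPM in vostok and 144 ± 14.2 CPM in control libraries (log2 difference 0.41 ± 0.08, adjusted p = 0.00736). The insertion and the gene thus moved in opposite directions. A second such pair was picked after its values were seen, since its gene is on the list of transposon control genes. S{}AGO2[S1008] had 83, 122, 90 and 72 counts in vostok libraries 1 to 4, against 25, 53, 41 and 32 in control libraries 1 to 4 (log2 difference 1.36, adjusted p = 0.0068). AGO2, the Argonaute protein that carries small interfering RNAs, was at 267, 260, 241 and 255 CPM in vostok libraries 1 to 4, against 362, 341, 418 and 386 CPM in control libraries 1 to 4 (log2 difference -0.56 ± 0.08, adjusted p = 0.00183). Here the insertion was higher and the gene lower in vostok, with no overlap of the groups in either. The leading Bari1 copy (FBti0019400) had 0 counts in all vostok libraries, against 5, 13, 2 and 2 in control libraries 1 to 4, and the cytochrome P450 gene in its name, Cyp12a4, was at 3.37 ± 0.153 CPM in vostok and 9.53 ± 2.64 CPM in control libraries (log2 difference -1.50 ± 0.20, adjusted p = 0.00162).

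Genes that act on transposons passed in both directions, in shares near those of all genes. Of 71 listed genes 66 were in the table and 65 were tested, of which 8 rose and 10 fell, against 11.4% and 11.9% of all genes, with a list median of -0.02. In the piRNA pathway, which silences transposons mainly in gonads, 5 of 32 rose (SoYb, del, moon, tej and tj) and 6 fell (vret by 0.72, shu by 0.65, spn-E by 0.47, nxf2 by 0.38, papi by 0.31 and Nxt1 by 0.30 on the log2 scale; edgeR, adjusted p from 0.0231 to 0.0407). tj (log2 difference 0.80) and the 6 that fell were named after their values were seen. SoYb, a Tudor domain protein of that pathway, was at 2.59, 2.24, 1.65 and 1.85 CPM in vostok libraries 1 to 4, against 0.624, 0.602, 0.534 and 0.405 CPM in control libraries 1 to 4 (log2 difference 1.94 ± 0.24, adjusted p = 0.00105). Its groups were well apart, though at a low level.

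moon, a germline factor that recruits the transcription machinery to piRNA clusters, was at 0.460, 0.523, 0.450 and 0.297 CPM in vostok libraries 1 to 4, against 0.0581, 0.172, 0.0629 and 0.0599 CPM in control libraries 1 to 4 (log2 difference 2.25 ± 0.42, adjusted p = 0.00747). del, which acts with the Rhino protein at the same clusters, rose by a log2 difference of 0.68 ± 0.10 (adjusted p = 0.00192), and tej, another Tudor domain protein, by 1.06 ± 0.25 (adjusted p = 0.0202). The germline marker genes vas, nos, bam, osk and zpg summed to 2.30 to 3.07 CPM in vostok and 1.22 to 1.64 CPM in control libraries. Of the 3 tested, 2 passed, both higher, beside 11.4% of all genes that passed higher. The third, vas, did not pass (edgeR, adjusted p = 0.153). zpg and nos stayed at or below 0.205 CPM in every library, and zpg was highest in control library 3 (0.110 CPM). The piRNA genes piwi, aub, AGO3, rhi and krimp did not pass, with aub and rhi fitted higher and the others lower. The part of germline RNA in these differences was not tested.

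In the siRNA pathway, the main defence against transposons outside the gonads, 1 of 4 genes rose (r2d2, a partner of Dicer-2, 0.29 ± 0.05, adjusted p = 0.00593) and 1 fell (AGO2). Of 16 heterochromatin genes 1 passed, HP1b, a member of the HP1 family, which fell (-0.31 ± 0.06, adjusted p = 0.01); DESeq2 called 1 more, higher. Of 7 genes of end joining and inverted repeat binding, 2 passed and fell (Irbp18 and Ku80), of which limma voom called 1. Of 6 genes related to transposases 2 passed and rose, cag (0.49 ± 0.08, adjusted p = 0.00355) and bab1, and DESeq2 called 3. Irbp18, Ku80 and bab1 were named after their values were seen. These counts moved with the libraries used: 7 listed genes passed without vostok library 2, 8 without vostok library 3, 9 without vostok library 4, 8 without control library 3 and 23 without control library 2.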

How the data were processed

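Total RNA of whole larval brains was made into directional libraries, per the labels' protocols. As deposited by the authors, the values are estimated counts for each gene, insertion and repeat, with no scaling between libraries. The table is named for salmon, a quantifier that divides reads among similar sequences. The submitters' processing notes list BWA and dm6. The version of salmon, the annotation and the strand option were not given in the sources used here. No reference positions or sequences of insertions were used.

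The 4 vostok and 4 control columns were matched by replicate number to the labels, the vostok columns through the gene name CG11504 in the series title. Columns of other samples numbered 0. Genes held 99.3% to 99.5% of the counts in each library. A table of gene names matched 17855 gene identifiers.

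The estimates were rounded to whole numbers and scaled by the gene totals alone. The robust quasi-likelihood test of edgeR 4.0.16 in R 4.3.3 compared the genotypes with no other covariate, after filterByExpr at default settings, and p-values were adjusted over all features by the Benjamini-Hochberg method. Standard errors were derived from the log2 difference and its F statistic. Family sums used all insertions of a family, tested or not. Named were every family, its most abundant insertion, the 10 largest increases and decreases among called insertions whose groups do not overlap and whose higher group averages at least 10 counts, the genes in their names, and up to 8 called genes of the control list by smallest p. That list covers the piRNA and siRNA pathways, heterochromatin, end joining and inverted repeat binding, and genes related to transposases. Other lists hold markers of neurons, glia, neuroblasts, hemocytes, fat body, muscle, imaginal disc, ring gland, gut and germline. Members and lists were chosen with earlier results of these data known.

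Alternatives were TMM and RLE factors, gene totals without ribosomal RNA genes, no filter, a filter of 50 counts in 4 libraries, DESeq2 1.42.0, limma 3.58.1 voom, a replicate block, each library left out, and family sums without the most abundant insertion. Figures were drawn with matplotlib 3.10.9.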

Additional observations from a re-analysis of the deposited data

Results flagged for a closer look

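Among the 4 libraries of each group, a library stood apart from the other 3 of its group in 7 of 92 group values looked at, over the total of all members, the 14 family sums and the 31 named insertions. For independent, normally distributed values chance alone sets about 1 in 20 such groups apart. That share does not strictly apply here, since insertions, family sums and the total overlap. The measure is the gap to the nearest library divided by the range of the group, which is 1 by construction where the other 3 libraries are at 0. For 1360{}1588 control library 3 was highest (1 of the range), at 0.0863 CPM with the other control libraries at 0. For INE-1{}4114 vostok library 3 was highest (1 of the range), at 0.0282 CPM with the other vostok libraries at 0. For S{}1207 vostok library 1 was highest (0.936), at 1.88 CPM against 1.11 to 1.16 CPM in the other vostok libraries. For INE-1{}5364 vostok library 1 was lowest (0.844), at 14.7 CPM against 16.9 to 17.4 CPM. For Tc1{}1544 vostok library 1 was lowest (0.912), at 0.921 CPM against 1.03 to 1.04 CPM. For mariner2{}1130 vostok library 1 was lowest (0.844), at 0 against 1.31 to 1.56 CPM, and control library 4 was highest (1 of the range), at 0.914 CPM with the other control libraries at 0.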

How the results depend on the processing

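Called families numbered 5 with the settings reported, 3 with the stricter filter, 3 with the replicate block and 3 to 7 without 1 library (7 without control library 2). Called insertions numbered 40, with 24 under the stricter filter, which tested 84, 49 without a filter, 49 with DESeq2, 33 with the replicate block and 32 to 61 without 1 library (61 without control library 2, 42 of them higher). Of the 40, 39 were called by DESeq2, 40 by limma voom, 40 with TMM, 40 with RLE factors, 37 without a filter and 30 with the block. Called genes of the transposon control list numbered 18, with 9 under the replicate block and 7 to 23 without 1 library. The log2 difference of the members' total stayed between -0.02 and 0.13 without 1 library. Without its most abundant copy the difference turned to -0.60 in hopper, 0.14 in 1360, -0.019 in pogo and -0.28 in mariner2. Without 1 library, values not past the threshold crossed 0: family 1360 ran from -0.073 to 0.039, pogo from -0.085 to 0.27, pogo{}4759 from -0.10 to 0.41, Tc1-2{}5456 from -0.13 to 0.16 and HB{}248 from -0.16 to 0.25. The 20 insertions with the largest changes gave 312 alternative values, of which 305 kept direction and call, 7 lost the call (all of INE-1{}1972) and 0 reversed. The S call was lost in 13 of 17 alternatives and that of transib2 in 6, the replicate block among them (adjusted p = 0.0627 for S and 0.0645 for transib2). Same-numbered libraries of the groups correlated in their deviations at 0.18, 0.03, -0.03 and -0.03. These values show no pairing by number, and whether same-numbered libraries shared a batch was not tested. The causes of these changes were not tested, except that the stricter filter tests fewer insertions. The median of all genes moved by under 0.1 between scalings (-0.05 to -0.02). Family sums outside annotated genes were not run, since no insertion positions were used. At this depth 2953 insertions did not pass edgeR's default filter on low counts and were not tested singly.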
